A study of Mus musculus with 9 samples.

Results

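CpG islands are short stretches of the genome in which the dinucleotide CG is frequent. Most lie over the starts of genes and carry almost no methylated cytosine in any tissue, while the rest of the genome is methylated at most of its CGs. Proteins with a CXXC domain bind unmethylated CG and help to keep DNA methyltransferases away, and the enzymes of the TET family oxidise methyl groups that arrive there. The regions described here are the unmethylated cores of such CpG-dense sequence: tiles of 100 bp on the autosomes whose deposited CpG density was 8 or more and whose mean methylation over the 4 tail-tip fibroblast samples was under 20%. The density is the authors' value: for each CpG of a tile the neighbouring CpGs up to 50 bp away are counted, and the counts are averaged. The fibroblast values thus chose the members, and their low level in fibroblasts is a description. Of 77553 dense autosomal tiles in the deposited table, 60219 had at least 10 calls in each of the 8 samples, and 54150 of these (89.9%) were members. They made up 19.4% of the 279699 tiles with that coverage. A further 1202 dense tiles stood at 20 to 60% in the fibroblast mean and 4867 at 60% or more.

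The assay was reduced representation bisulfite sequencing, which reads CpGs near CCGG sites. A level is the percentage of calls at a tile's CpGs that were methylated. The 8 samples were 4 of cultured tail-tip fibroblasts from adult male mice (label TT) and 4 of embryos in which fibroblast nuclei had been put into C57/B6 oocytes without their own chromosomes (label NTZy14, here NT embryos). In each stage samples 1 and 2 were BDF1-CAST and samples 3 and 4 were X1, a name that the sources used here do not explain, and neither do they explain the digits in NTZy14. All NT embryos thus share the donor cell type, and fertilised embryos are not analysed here. Whether samples of a group are separate mice or cultures is not stated, so a p-value reflects only how much these samples vary, and that variation may be technical. Members held 8159219 to 23160676 calls per sample, with a median of 112 to 358 calls per member.

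A few members show what the cores look like. The letters are those of RefSeq promoter windows (GRCm38.p6), placed on the mm9 positions of the files by the spacing of their CpGs alone, and only bases before the annotated gene start are shown. They read 5′ to 3′ on the strand of the gene, with each CG in capitals. The first belongs to the member at Larp1, which encodes an RNA-binding protein acting on the translation of ribosomal protein messages, and is among the densest. Ppia encodes the abundant protein-folding enzyme cyclophilin A, and Pax6 a transcription factor of eye and brain development. Nav1, a protein of growing neurites, and Idnk, a gluconokinase, lie at members that rose in NT embryos.

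Larp1, chr11:57822315-57822399, plus strand: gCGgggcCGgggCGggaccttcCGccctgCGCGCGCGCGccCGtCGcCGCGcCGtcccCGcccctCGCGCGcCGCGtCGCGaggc

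Ppia, chr11:6315800-6315868, plus strand: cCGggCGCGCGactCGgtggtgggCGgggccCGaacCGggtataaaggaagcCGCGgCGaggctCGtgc

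Pax6, chr2:105508900-105508999, plus strand: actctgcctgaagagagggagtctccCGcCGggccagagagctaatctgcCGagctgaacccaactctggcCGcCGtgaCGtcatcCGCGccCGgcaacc

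Nav1, chr1:137481932-137481999, minus strand: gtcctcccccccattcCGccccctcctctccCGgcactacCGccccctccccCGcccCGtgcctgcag

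Idnk, chr13:58258900-58258999, plus strand: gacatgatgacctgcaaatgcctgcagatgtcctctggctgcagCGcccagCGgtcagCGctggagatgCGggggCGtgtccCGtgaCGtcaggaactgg

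The Larp1 stretch holds 22 CG in 85 bases and the Idnk stretch 7 in 100. The members at these genes therefore span most of the range from the densest tiles, at a density of 25, to the limit of 8.

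On average, the cores had a similar low level before and after nuclear transfer. Members averaged 1.60% ± 0.293 in fibroblasts and 1.56% ± 0.212 in NT embryos (SD over samples, n = 4 each). Fibroblast samples 1 to 4 stood at 1.90%, 1.76%, 1.24% and 1.48%, and NT embryo samples 1 to 4 at 1.73%, 1.74%, 1.47% and 1.31%. The stages overlapped, and over whole members the BDF1-CAST samples were the higher ones in both. In fibroblasts this order was not the same at every set of CpGs. Whether a CpG lies in a CCGG site was known only where promoter letters were placed. The CpGs given next thus cover only part of the members, and the tiles compared change along with the kind of CpG. At 29516 CpGs outside CCGG sites, fibroblast samples 1 to 4 had 0.788%, 0.772%, 0.484% and 0.823%. X1 sample 4 was thus the highest there. At 7993 CpGs in CCGG sites they had 1.4%, 1.47%, 0.605% and 1.08%. In NT embryos both BDF1-CAST samples were above both X1 samples at either kind of CpG. The strain order of these means was not tested. The mean of a member moved by 2 points or less in 85.4% of members and by 5 points or less in 96.1%. By comparison, 4867 dense tiles at 60% or more in fibroblasts went from 86.4% ± 1.44 to 76.0% ± 6.18 (SD, n = 4 each). BDF1-CAST fibroblasts stood at 86.0% and 84.5% there and their NT embryos at 70.0% and 71.5%. X1 fibroblasts stood at 87.6% and 87.3% and their NT embryos at 82.9% and 79.4%. These tiles too were chosen by their fibroblast values and were not classed in the other strain, so part of their fall may come from the choice.

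Because the fibroblast values chose the members, the change was also measured with tiles classed in the other strain. Dense tiles under 20% in the fibroblasts of one strain were followed in the samples of the other. Their level changed by -0.05 points ± 0.103 (SD, n = 4 NT samples) against the fibroblasts of their own strain, with 1 sample higher and 3 lower. The change was 0.0149 points with tiles weighted by calls and 0.0111 without X1 fibroblast sample 4.

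Nearly all members stayed low in every sample. In all 8 samples 52052 members (96.1%) were under 20%, and 38737 (71.5%) were under 5%. In 678 members no methylated call was seen in any sample. The NT mean was under 20% in 53845 members (99.4%), at 20% or more in 305, at 40% or more in 25 and at 60% or more in 0. In single NT samples 98.9% ± 0.422 (SD, n = 4) of members were under 20%. Tiles of lower density with the same fibroblast limit, 46543 in number, were under 20% in 93.0% ± 2.23 of cases in NT samples and averaged 4.03% in fibroblasts and 4.65% in NT embryos. Those values have no test here, since both sets of tiles come from the same samples.

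**Figure D1:**
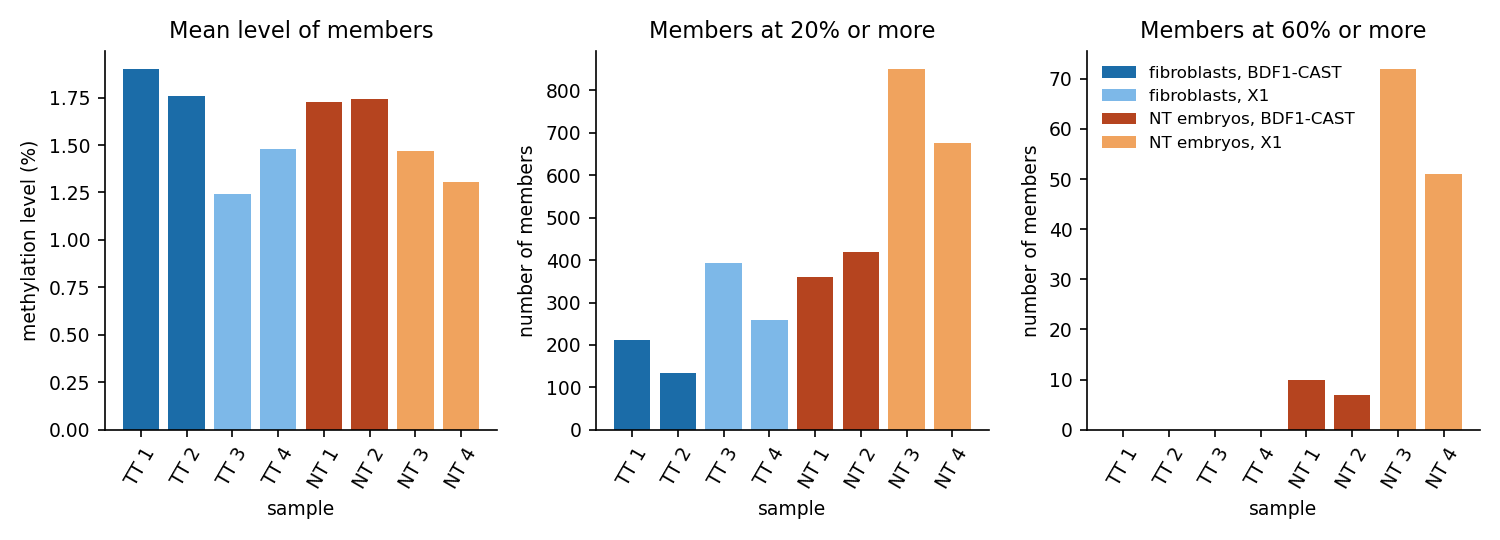
Mean methylation level of the 54150 members (left, %), number of members at 20% or more (middle) and number at 60% or more (right) in each sample; TT are fibroblasts, NT are NT embryos, bars are single samples. Mean levels overlap between 1.24% and 1.90%, while members at 60% or more number 72 and 51 in the X1 NT samples and 0 in each fibroblast sample, where the rule limits them.

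The spread of levels around the mean was also counted at both ends. Members at 0% made up 11.2%, 24.1%, 50.1% and 36.5% of fibroblast samples 1 to 4, and 41.2%, 42.3%, 71.2% and 70.5% of NT samples 1 to 4. Depth moved with this share, since the median calls per member were 358, 186, 181 and 181 in fibroblasts and 156, 128, 112 and 136 in NT embryos. With every member reduced to 10 calls, the share without a methylated call was 84.7%, 85.5%, 90.7% and 88.2% in fibroblasts and 86.9%, 86.8%, 91.4% and 92.1% in NT embryos. The stages overlapped at equal depth, and in both the X1 samples were above the BDF1-CAST samples. Within each strain both NT samples were above both fibroblast samples. The same held for dense tiles chosen as under 20% in the fibroblasts of the other strain, with 84.8% and 85.6% in BDF1-CAST fibroblasts, 87.0% and 86.9% in their NT embryos, 90.5% and 87.9% in X1 fibroblasts and 91.2% and 91.9% in X1 NT embryos. These differences have no test.

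The upper end cannot be compared directly, since the rule itself keeps fibroblast samples from high values. Members at 20% or more numbered 212, 134, 392 and 259 in fibroblast samples 1 to 4 and 361, 419, 851 and 677 in NT samples. Fibroblast sample 3 overlapped the BDF1-CAST NT samples, but each NT sample was above the fibroblast samples of its own strain. At 60% or more there were 0 members in each fibroblast sample and 10, 7, 72 and 51 in NT samples. At an equal depth of 10 calls, 0.124%, 0.139%, 0.409% and 0.347% of members in NT samples 1 to 4 had at least 5 methylated calls, against 0.0457%, 0.0271%, 0.0814% and 0.0447% in fibroblasts.

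Classing the tiles in the other strain takes this limit off the samples compared. In the share of tiles at 20% or more, the gap between the stages was then smaller. Among 53955 dense tiles under 20% in X1 fibroblasts, 0.493% and 0.358% were at 20% or more in BDF1-CAST fibroblasts and 0.667% and 0.775% in BDF1-CAST NT embryos. Among 54231 such tiles under 20% in BDF1-CAST fibroblasts, the shares were 1.07% and 0.802% in X1 fibroblasts and 1.80% and 1.43% in X1 NT embryos. Each NT sample was thus still above both fibroblast samples of its strain. Tiles at 60% or more numbered 3 and 2 in BDF1-CAST fibroblasts, 11 and 10 in their NT embryos, 10 and 11 in X1 fibroblasts and 102 and 78 in X1 NT embryos. At 10 calls, 0.0729% and 0.0530% of tiles in BDF1-CAST fibroblasts and 0.129% and 0.147% in their NT embryos had at least 5 methylated calls, against 0.190% and 0.128% in X1 fibroblasts and 0.523% and 0.451% in X1 NT embryos.

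The order depended on the starting level. Of tiles at 10 to 20% in the fibroblasts of the other strain, 14.7% and 11.7% were at 20% or more in BDF1-CAST fibroblasts and fewer, 8.97% and 9.18%, in BDF1-CAST NT embryos. In X1 the shares overlapped, with 31.2% and 25.6% in fibroblasts and 30.9% and 23.6% in NT embryos. At 60% or more the X1 NT embryos stayed apart in this class, with 50 and 45 of 1131 tiles against 9 and 10 in X1 fibroblasts.

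Members at 20% or more held 37.5% and 33.9% of the summed level in the X1 NT samples, 11.5% and 13.3% in the BDF1-CAST NT samples, and 3.50% to 15.4% in fibroblasts.

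High levels were mostly not shared between NT samples. Of 121 members at 60% or more in at least 1 NT sample, 102 were so in exactly 1 sample and 19 in exactly 2. All 19 were high in both X1 samples. The high samples were X1 alone for 104 members and BDF1-CAST alone for 17. The 104 members started from a median of 18.1% in X1 fibroblasts and 8.51% in BDF1-CAST fibroblasts, against 0.588% and 1.06% over all members. Only 11 members were at 20% or more in each of the 4 NT samples. High members had high neighbours: of 80 cases at 60% or more with an adjacent member, 52 (65%) had one at 20% or more in the same sample, against 0.815% of cases under 20%. All 52 came from the X1 samples, and the 8 such cases with a neighbour in the BDF1-CAST samples had none.

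Chromosome 12 held 103 of the 305 members with an NT mean of 20% or more, which is 4.24% of its members. On the other autosomes the share ran from 0.190% to 0.595%. Nearly all of them lay between 16 and 26 Mb, a stretch marked out after its values were seen: 97 of its 311 members had an NT mean of 20% or more, and 66.6% were already at 5% or more in fibroblasts. The stretch averaged 7.12%, 5.86%, 12.5% and 10.7% in fibroblast samples 1 to 4 and 7.59%, 8.48%, 20.5% and 18.4% in NT samples, so that both X1 NT samples stood above all others. None of its members was called higher. How reads that match several places were handled is not given in the sources used here, and its part in these levels was not tested. Outside the stretch, members at 60% or more still numbered 8, 7, 68 and 48 in NT samples 1 to 4, and those at 20% or more 337, 391, 694 and 547 against 208, 125, 302 and 200 in fibroblasts. The share of high cases with a high neighbour was 63.5% there.

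Rises that passed the test were rare. The calls of every tile went into a quasi-binomial model with terms for stage and strain. Calls needed an adjusted p under 0.05 (Benjamini-Hochberg over all 279699 tiles) and at least 20 points between the stage means. Among all tiles 0.127% were called higher in NT embryos, and 9 of the 54150 members (0.0166%) were. All tiles called lower made up 3.6%, while among members there were 0, as the rule fixes: a member starting under 20% cannot fall by 20 points. Counted without a model, each NT sample was above each fibroblast sample in 191 members (0.353%), against 0.874% of all tiles. With 10 points or more between means this held in 42 members (0.0776%), against 0.587%. The 9 calls sat near the threshold. With any 1 fibroblast sample left out no tile of any kind was called, the smallest adjusted p over all tiles being 0.0503 to 0.113. With an NT sample left out, 3 to 5 of the 9 remained among 5 to 11 members called.

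The largest rise lay at Acp5, which encodes tartrate-resistant acid phosphatase, an enzyme of bone-resorbing cells. This member, chr9:21936200-21936299 (mm9), reaches from the gene start into its transcribed part. It had 4.2%, 4.76%, 8.21% and 2.98% in fibroblast samples 1 to 4 and 44.1%, 52.6%, 36.4% and 93.5% in NT samples. All 4 NT samples were above all fibroblasts, a difference of 51.6 points with an adjusted p of 0.0144 in the quasi-binomial model. NT sample 3 rests on 11 calls and the other samples on 137 to 470. Before the gene start the window holds fewer CG, as these letters of the tile 200 bp away show:

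Acp5, chr9:21936400-21936499, minus strand: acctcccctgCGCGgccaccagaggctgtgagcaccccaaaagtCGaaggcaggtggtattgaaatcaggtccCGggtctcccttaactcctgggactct

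That tile, of density 5 and so no member, went from 9.67% ± 2.51 to 30.5% ± 16.2 (SD, n = 4 each). A tile 300 bp to the other side, of density 4, went from 1.90% ± 1.51 to 52.4% ± 31.4, with NT samples at 27.2%, 96.9%, 51.6% and 33.9%. Fibroblasts were low and NT embryos higher across all covered tiles around Acp5.

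Nav1 rose less. Its member, whose upstream letters are printed above, had 2.63%, 4.00%, 1.45% and 5.48% in fibroblasts and 6.67%, 33.7%, 22.0% and 33.3% in NT samples, a difference of 20.5 points (adjusted p = 0.0279, 45 to 304 calls). NT sample 1 was close to the fibroblasts and the other NT samples were well above them. The tile 100 bp away, at density 7, had 10.4%, 10.7%, 15.2% and 40% in NT samples against 4.26% ± 3.13 (SD, n = 4) in fibroblasts.

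At Idnk the high samples were the X1 NT samples. The fibroblasts had 0%, 0%, 0% and 2.08%, the BDF1-CAST NT samples 0% and 0%, and the X1 NT samples 46.9% and 50% (23.7 points between stage means, adjusted p = 0.0134, 30 to 83 calls). The 2 CpGs with enough calls differed between those X1 samples: at 58258982 they had 46.9% and 100%, at 58258987 46.9% and 0%. Every BDF1-CAST sample was at 0%, so the test of the interaction of stage and strain could not pass for this tile. The strain difference is a description of 2 samples. In the quasi-binomial model without the strain term the rise had an adjusted p of 0.154. With limma on arcsine square root levels it was 0.206. The tile 100 bp further into the gene, also a member, had 28.8% in NT sample 3 and 0% in the other NT samples.

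The other 6 called members carry no gene name here, since no placed promoter window covers them. On chromosome 10, the member at 126528700 had 2.52%, 2.88%, 28.0% and 15.3% in fibroblasts and 11.2%, 8.70%, 92.6% and 65.0% in NT samples (adjusted p = 0.0301). On chromosome 2, the member at 32597100 had 6.90%, 4.00%, 42.7% and 17.7% in fibroblasts and 25.3%, 13.5%, 75.0% and 85.6% in NT samples (adjusted p = 0.0333). In both the X1 fibroblasts already stood above the BDF1-CAST fibroblasts, and the X1 NT samples were the highest.

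On chromosome 7, the member at 52675500 started near the limit of the rule, with 14.8% to 27.5% in fibroblasts. It had 52.6%, 45.0%, 33.3% and 69.8% in NT samples (adjusted p = 0.0170 in the quasi-binomial model), and NT sample 3 rests on 18 calls. On chromosome 13, the member at 38437800 had 0% to 4.58% in fibroblasts and 25%, 51.4%, 10.8% and 28.0% in NT samples (adjusted p = 0.0276). In NT samples 1, 2 and 4 this rise sat mostly in neighbouring CpGs of the tile. In NT sample 3 the methylated calls lay at other CpGs, with 25% at 38437816 and 33.3% at 38437823. At 38437871 NT samples 1 to 4 had 69.0%, 90.5%, 0% and 63.3%, and at 38437879 they had 67.9%, 82.1%, 0% and 56.7%, while the CpG at 38437892 was at 0% in all 8 samples.

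On chromosome 5, the member at 31395200 had 2.17% to 2.86% in fibroblasts and 44.3%, 17.3%, 23.5% and 10.3% in NT samples (adjusted p = 0.0382). NT sample 3 rests on 17 calls in this member. The neighbour at 31395100 had 28.4%, 14.7%, 30.3% and 4.13% in NT samples against 3.00% to 7.79% in fibroblasts. The neighbour on the other side, at 31395300, was at 50% in NT sample 2 and at 2.13% or less in the other NT samples. The ninth, at 38787500 on chromosome 2, had 0.92% to 3.96% in fibroblasts and 10.5%, 18.8%, 28.9% and 34.3% in NT samples (adjusted p = 0.0211). No 2 of the 9 lay within 1000 bp of each other.

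**Figure D2:**
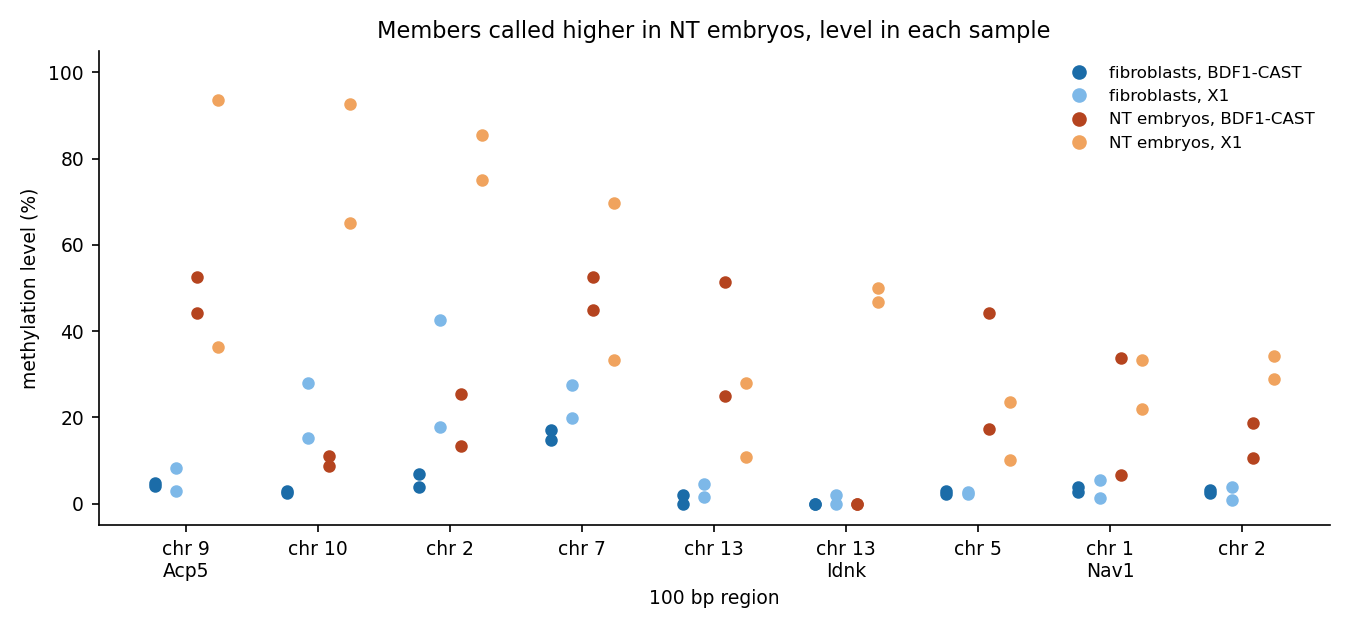
Methylation level (%) of the 9 members called higher in NT embryos, ordered by the difference between stage means, with 1 point per sample coloured by stage and strain and labels giving the chromosome and, where placed, the gene. The first, at Acp5, has all NT samples between 36.4% and 93.5% and all fibroblasts at 8.21% or less, and the Idnk member is high in the X1 NT samples alone.

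Smaller changes were more numerous. Without a minimum difference, 161 members (0.297%) passed an adjusted p of 0.05 in the quasi-binomial model as higher in NT embryos. That share was near the 0.274% of all tiles. As lower, 251 members (0.464%) passed, against 4.3% of all tiles. Chosen by their change, the 161 went from a median of 0.521% to 6.93%, and the 251 from 5.45% to 0.266%. Each direction held 52 members that moved by 10 points or more.

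The members described next were chosen for the largest falls among those at an unadjusted p under 0.05 in the quasi-binomial model. With fibroblast means under 20%, falls of this size have to start near the limit and end near 0, so that pattern is no finding. On chromosome 11, the member at 103222200 had 17.7%, 12.5%, 30% and 17.3% in fibroblasts and 1.52%, 2.08%, 0% and 0% in NT samples (adjusted p = 0.0174). On chromosome 3, the member at 90268700 had 16.7%, 16.9%, 21.1% and 23.1% in fibroblasts and 4.49%, 0%, 0% and 0% in NT samples (adjusted p = 0.0262). Fibroblasts and NT samples did not overlap in either. On chromosomes 6 and 7, the members at 90855500 and 28110700 had means of 19.2% and 18.9% in fibroblasts and 0% in every NT sample. They did not pass (adjusted p = 0.0780 and 0.127 in the quasi-binomial model), with as few as 18 and 12 calls in a sample.

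A small part of the cores stood at 5 to 20% in the fibroblast mean, here called low-level. Methylated calls were not confined to them, since only 678 members (1.25%) had none in any sample. The fibroblast mean was under 1% in 54.5% of members and 5 to 20% in 2959 members (5.46%). In the 2106 of these with at least 4 well-covered CpGs, the median tile had 71.4% of its CpGs at 5% or more. A single CpG held 80% or more of the methylated calls in 64 (3.04%), so the low level was mostly spread over the CpGs of a tile.

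The level recurred in samples that had not been used to class the tile. Dense tiles at 5 to 20% in the fibroblasts of one strain averaged 7.64% ± 0.507 in the fibroblasts of the other (SD, n = 4), and tiles at 0 to 1% averaged 0.957% ± 0.397. In NT embryos the same classes stood at 6.98% ± 1.67 and 0.913% ± 0.475. The low-level class stood at 5.42% and 5.80% in BDF1-CAST NT samples 1 and 2, against 8.11% and 7.15% in BDF1-CAST fibroblasts, differences of -2.21 and -1.83 points from the mean of both. In X1 it stood at 8.98% and 7.71% in NT samples 3 and 4 against 8.04% and 7.25% in fibroblasts, differences of 1.33 and 0.0645 points. Over all 4 NT samples the change was -0.66 points ± 1.66 (SD), within the spread between samples. It was -0.14 without BDF1-CAST NT sample 1, -0.27 without BDF1-CAST NT sample 2, -1.32 without X1 NT sample 3 and -1.07 without chromosome 12 between 16 and 26 Mb, and 0.079 with tiles weighted by calls, so its direction is not firm. The strains went in opposite directions, and this difference was not tested.

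**Figure D3:**
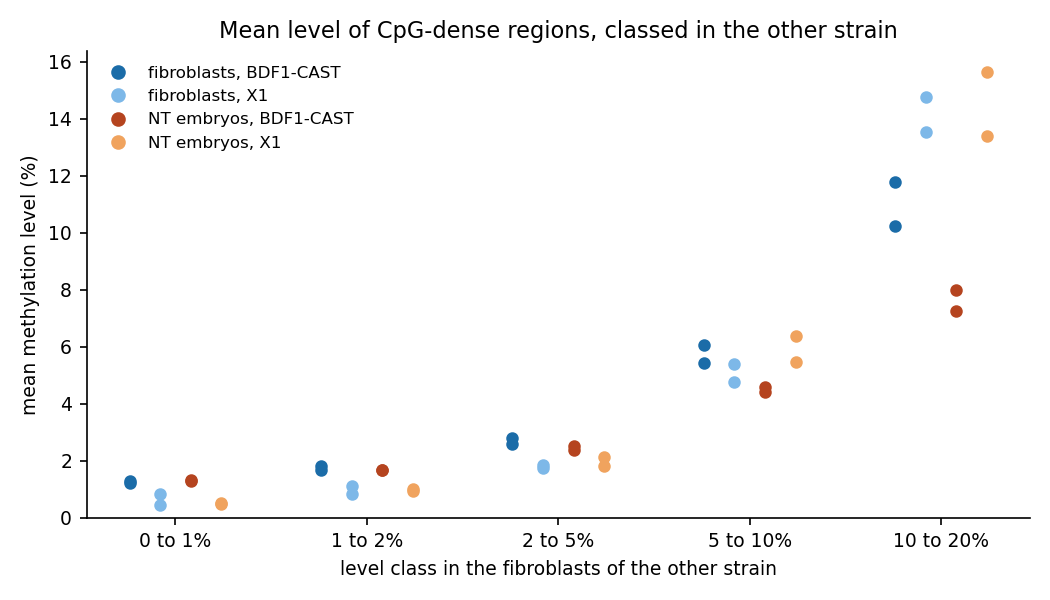
Mean methylation level (%) of CpG-dense tiles grouped by their level in the fibroblasts of the other strain, with 1 point per sample. Levels follow the class in every sample, and in the 10 to 20% class the BDF1-CAST NT samples lie at 7.25% and 7.98%, below their fibroblasts at 11.8% and 10.2%.

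The low-level members described next were chosen as those with the least spread over the 8 samples, so their evenness is no finding. At 39985300 on chromosome 17, with 11816 to 47576 calls per sample, the level was 6.28%, 5.29%, 5.34% and 3.36% in fibroblasts and 3.69%, 3.49%, 5.43% and 4.05% in NT samples. At 100883300 on chromosome 12, with 2758 to 7645 calls, it was 5.35%, 6.52%, 6.36% and 5.28% and then 5.81%, 4.86%, 8.18% and 5.13%. At 39982300 on chromosome 17, with 1452 to 6499 calls, it was 6.74%, 6.66%, 3.90% and 3.11% and then 3.34%, 6.36%, 3.77% and 2.96%. All these were far above the median member in depth, and whether their sequence has several copies was not tested. At Ppp2r5a, which encodes a regulatory subunit of the phosphatase PP2A, a member had 210 to 712 calls, above the median member in every sample. Its level ran from 4.03% to 6.60% in fibroblasts and from 2.71% to 6.12% in NT samples. In these members the stages overlapped.

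The level of a member followed how near it lay to methylated sequence. Members within 100 to 500 bp of a tile at 60% or more in fibroblasts, 134 in number, averaged 7.95% ± 0.869 in fibroblasts and 6.57% ± 2.02 in NT embryos (SD, n = 4 each). At 500 to 1000 bp the values were 2.92% and 3.01%, and at 20000 bp or more, for 18788 members, 1.49% and 1.43%. The share with an NT mean of 20% or more went from 6.72% to 0.346% over the same range. Density had a smaller gradient. Members at a density of 8 to 10 averaged 1.84% and 1.83%, and those at 17 or more 1.32% and 1.18%, of which 6 of 3982 reached an NT mean of 20%. Stage means differed by less than the larger of the SDs of the stages in each of these classes.

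**Figure D4:**
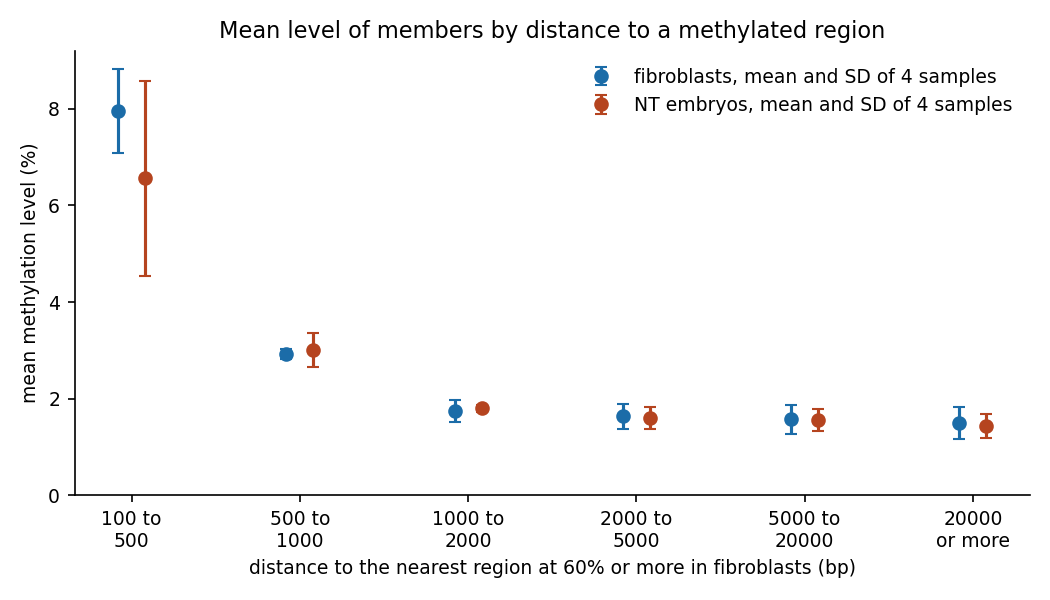
Mean methylation level (%) of members by distance in bp to the nearest tile at 60% or more in the fibroblast mean; points are means and bars SDs of 4 samples per stage. Levels go from 7.95% and 6.57% at 100 to 500 bp to 1.49% and 1.43% at 20000 bp or more, with the stages overlapping.

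The 4 densest members lay on both sides of the member mean: in fibroblasts those at Larp1 and at 122161700 on chromosome 5 were above it and the other two below. At Larp1, the first sequence shown, the level was 4.88%, 1.16%, 0% and 1.84% in fibroblasts and 0.48%, 0.74%, 0.24% and 0.90% in NT samples. The members at 154596900 on chromosome 4 and 87324100 on chromosome 8, at densities of 25 and 24, had at most 1.41% and 3.82% in any sample. The member at 122161700 on chromosome 5, at density 24, had 5.51%, 5.19%, 1.01% and 0% in fibroblasts and 8.17%, 4.46%, 0.27% and 3.06% in NT samples, so that its BDF1-CAST samples were the higher ones in both stages.

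Members at placed gene starts were lower than the other members in the mean of each stage. Promoter windows of 7307 genes could be placed, and 6447 genes had a member in theirs. The 13973 members in a placed window averaged 1.23% ± 0.405 in fibroblasts and 1.16% ± 0.408 in NT embryos, and 28 (0.20%) had an NT mean of 20% or more. Among the 40177 other members, which include promoters that could not be placed, the values were 1.72% ± 0.255, 1.70% ± 0.154 and 277 (0.689%). Of the 9 calls, 3 lay in placed windows.

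For comparison with the gene lists, 93.5% of all members had an NT mean under 5%, the median member stood at 0.902% over fibroblasts and 0.658% over NT samples, and 412 (0.761%) passed an adjusted p of 0.05 in either direction, against 4.57% of all tiles. Of 15 genes used in every cell, 5 windows were placed and 3 genes had 4 members. All 4 were under 5% in the NT mean and 0 passed the test, as for most members. At Ppia, printed above, the level was 1.05%, 0.34%, 0% and 1.14% in fibroblasts and 0.98%, 1.47%, 1.39% and 0.60% in NT samples. Eef1a1, the translation elongation factor, and Polr2a, the large subunit of RNA polymerase, had at most 1.85% and 2.46% in any sample.

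Regulators of development, whose CpG islands Polycomb proteins can occupy in cells that do not use them, formed the other list. Of 25, 9 were placed and 8 genes had 17 members, with medians of 1.71% in fibroblasts and 0.706% in NT embryos. In 15 of the 17 the NT mean was under 5%, and 1 passed the test. Against the shares over all members, neither count sets the list apart. That member lay at Foxd3, a factor of neural crest and pluripotent cells: at 99323000 on chromosome 4 the level fell from 1.62%, 1.01%, 4.49% and 7.35% to 0%, 0%, 0% and 1.10% (adjusted p = 0.0354). The adjacent Foxd3 member had 8.75% to 11.8% in fibroblasts and 6.94%, 0%, 9.09% and 35.7% in NT samples, so NT sample 4 alone was high. Pax6 had 0.45% to 2.27% in fibroblasts and at most 1.55% in NT samples. Of the 5 members at Pax2, a factor of kidney and eye development, the one at 44831200 on chromosome 19 reached 19.3% in NT sample 2, with 2.33% or less in the other samples.

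Few tiles of any kind were called between strains, so the small count of called members says little about the members. The share called was 0.0122% of all tiles, and 1 member (0.00185%) was called. On chromosome 6, the member at 122824600 had 32.5%, 27.8%, 0% and 0.67% in fibroblasts and 58.0%, 49.4%, 1.17% and 0% in NT samples. The BDF1-CAST samples averaged 41.9% ± 14.2 and the X1 samples 0.459% ± 0.568 (SD, n = 4 each; adjusted p = 0.0191). With any 1 of the 8 samples left out it was not called, the adjusted p reaching 0.427.

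Without a minimum difference 7 members (0.0129%) passed, against 0.0197% of all tiles. None of the 7 passed with any 1 sample left out, and at a minimum of 5 calls 5 of them had an adjusted p of 0.0549. In 6 of them BDF1-CAST was higher, and each of those X1 samples was at 1.17% or less. At 16817900 on chromosome 12, BDF1-CAST samples had 12.5% and 10.9% in fibroblasts and 11.5% and 7.36% in NT embryos. At 79124600 on chromosome 14 the difference came from a single CpG at 79124699, with 43.8% and 40.5% in BDF1-CAST fibroblasts and 23.2% and 28.2% in their NT embryos, against 0% in every X1 sample, while the other CpGs of the tile were at 5.4% or less. Whether a sequence difference between the strains lies there was not tested. The member at 4199300 on chromosome 18 went the other way, with 16.4% and 13.9% in X1 fibroblasts and 4.49% and 3.00% in BDF1-CAST fibroblasts. The stage by strain interaction was called in 0 of all tiles (quasi-binomial model) and so in 0 members. In that model 2889 members (5.34%) had an unadjusted p under 0.05, against 8.07% of all tiles. The smallest adjusted p over members was 0.370, and limma on transformed levels also called 0.

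**Figure D5:**
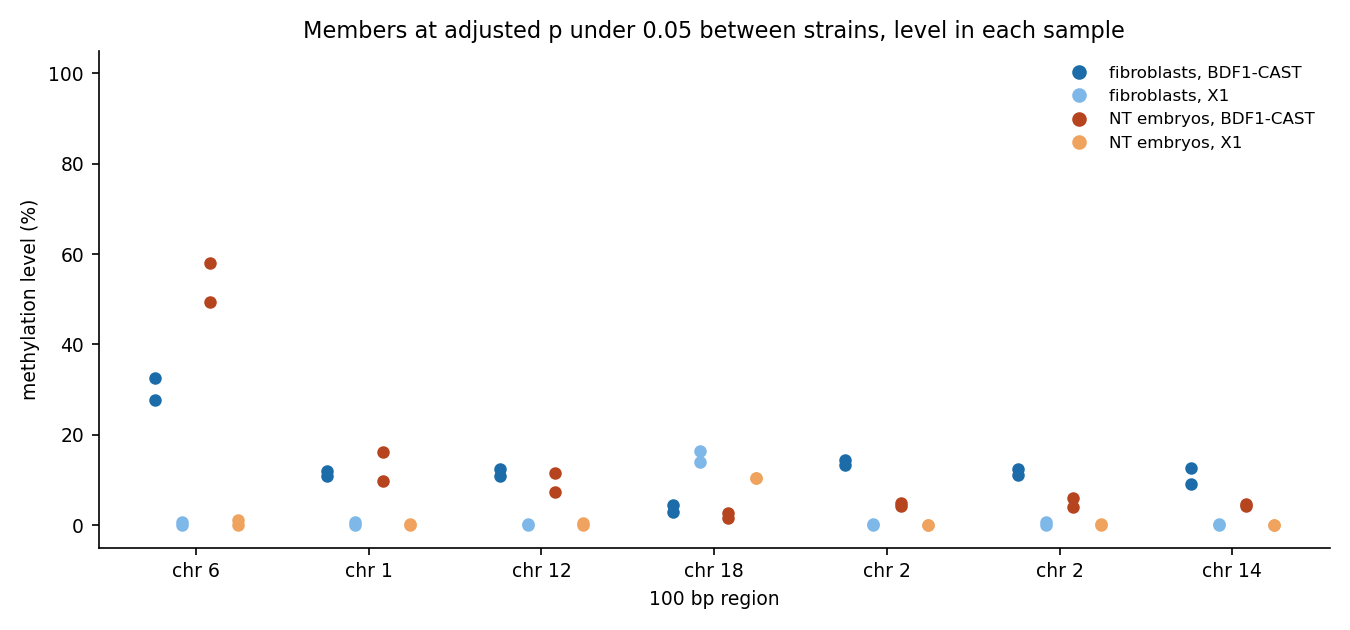
Methylation level (%) of the 7 members at an adjusted p under 0.05 between strains, ordered by the size of the difference, with 1 point per sample coloured by stage and strain. In 6 members every X1 sample lies at or under 1.17%, and the chromosome 18 member is higher in X1.

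The rule cuts through a continuous range of levels. The 3 members nearest to the limit had fibroblast means of 19.95% to 19.98% and NT means of 14.6%, 36.1% and 8.42%. The 3 tiles just outside had fibroblast means of 20% to 20.1% and NT means of 30.6%, 14.7% and 21.4%.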

How the data were processed

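Per the deposited description, each library file gives, for each CpG, the count of calls and the count of methylated calls that the authors obtained. The submitters' processing notes name build mm9. Aligner and caller: not given in the sources used here. Libraries 1 and 1a of TT, the second a resequencing, were summed. Calls were summed in 100 bp tiles. Tiles with at least 10 calls in all 8 samples entered a quasi-binomial logistic model (stage and strain; Pearson dispersion moderated by squeezeVar of limma 3.58.1 in R 4.3.3, at least 1; F test; Benjamini-Hochberg), in Python 3.11.15 with numpy 2.4.6, and tested on simulated data. The deposited fraction per tile served as a check: 98.0% to 99.9% of members lay within 0.001 of the ratio of summed calls over CpGs with 5 calls or more. CpG density is the authors' deposited score. Another 19 columns of that table were not used.

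RefSeq windows with at least 8 observed CpGs were placed on the files by CpG spacing, a step chosen after the data were seen, as no mm9 genome was used. Of 8199 placed windows, 8193 fell on the RefSeq chromosome. On 7 chromosomes with 182 windows the file positions ran 1 base below RefSeq's, so coordinates are printed as the files count them. Deviations of same-numbered samples had correlations of -0.0271 in BDF1-CAST and 0.0434 in X1. Over all tiles the median SD between samples was near the counting error, at 4.12 against 4.08 points in fibroblasts. In NT embryos it was 7.17 against 5.91 points, so correlations near 0 cannot exclude a pairing. The labels do not state whether the numbers pair samples, and the model did not pair them. Library totals were 25239364 to 41466097 calls, which limit counting error only, as reads carried no molecular identifiers.

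Tiles named are the 8 largest called rises, runs of called rises, the 4 largest called strain differences, the 4 most even low-level members, the 4 densest, the 3 nearest the limit on each side and the 4 largest falls. The ninth rise, the members under 20 points between strains and the neighbouring tiles were added after their values were seen. The members, lists and rules were chosen with earlier results of these data known.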

Additional observations from a re-analysis of the deposited data

Results flagged for a closer look

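Among 66 groups of 4 samples tested for a value far from the other 3, 3 (4.55%) had one. The cutoff gives about 1 in 20 by chance only for normally distributed values, so that rate does not apply to levels at or near 0%. Where 3 samples are at 0%, any other value in the fourth passes. At the Idnk member on chromosome 13, fibroblast sample 4 stood at 2.08% while the other fibroblasts were at 0%. At 90268700 on chromosome 3, NT sample 1 stood at 4.49% while the other NT samples were at 0%. At 87324100 on chromosome 8, fibroblast sample 2 stood at 3.82% against 0% to 0.39% in the others.

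In CpG-dense tiles at 5 to 20% in the fibroblasts of the other strain, the mean change from fibroblasts to NT embryos was -2.02 points for the BDF1-CAST samples and 0.698 points for those of X1. Both NT samples of each strain went the same way, but X1 NT sample 4 by only 0.0645 points. At 7.71% that sample lay between the X1 fibroblasts at 8.04% and 7.25%. The difference between strains was not tested.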

How the results depend on the processing

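Members called higher in NT embryos numbered 9, and 5 without the strain term, 1 with limma on arcsine square root levels, 4 at a CpG density of 10 or more, 52 at a minimum difference of 10 points and 161 with none. Leaving out single samples gave 0 to 11, the 0 being each fibroblast sample. Members called lower numbered 52 at 10 points and 251 with no minimum. Members called between strains numbered 1, and 4 at 20 calls or more, 0 without the stage term, 3 at 10 points, 7 with no minimum, 2 without the resequenced library and 0 when the fibroblast mean was under 10%; leaving out any single sample gave 0. The share of members under 20% in NT samples was 99.4% at a fibroblast mean under 10%. With the replicate number as a block in place of strain, 0 members and 0 of all tiles were called higher. The smallest adjusted p was 0.214 in that fit, and whether the numbers pair the samples is not known. At 5 calls or more all 9 rises were called again, and at 20 calls or more 6 of the 6 still covered. Leaving out chromosome 12 between 16 and 26 Mb, chosen after the data were seen, kept all counts of calls and gave a mean change of -0.07 points and a low-level change of -1.07 points. The causes were not tested. At 10 calls, a level moves in steps too coarse to separate members under 5%.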
